A study of Mus musculus with 3 samples.

Results

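Cytosolic ribosomal proteins build the 2 subunits of the ribosome, and their mRNAs are among the most abundant in a cell. The members described here were chosen by name alone, as every row of the deposited count table whose symbol is Rpl or Rps followed by a digit, plus Rplp0, Rplp1, Rplp2 and Rpsa. The S6 kinase genes (10 rows that begin with Rps6k) and names with "-ps" (16 rows) were left out. This gave 87 of 18478 genes: 44 of the large subunit, 31 of the small subunit, 3 of the stalk and 9 paralog-type genes, which are second copies or genes that carry such a name. Among the 44 is Rpl6l, which is annotated as a processed pseudogene with no coding sequence. Together they took 20.4% of all UMIs (unique molecular identifiers, each counted as 1 captured mRNA molecule).

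The cells came from the retina of adult mice with the genotype Yap5SA+/tg, ROSA26R-tdTomato+/tg and Glast-CreERT+/tg, given tamoxifen and then NMDA, which injures retinal neurons. Yap5SA is a form of the transcriptional co-activator YAP that the Hippo kinases cannot switch off, and the Glast promoter drives the tamoxifen-dependent Cre in glia, so the tdTomato reporter marks cells in which Cre was active. At 2 days tdTomato+ cells were sorted and sequenced in 3 runs of droplet single-cell 3' RNA-seq. All 3 runs carry the same genotype, injury and time, so no control group exists in these data, the table has no row for the transgene or the reporter, and the labels do not say whether runs were separate animals. Run was fitted as a block, so the p-values below measure how far differences between classes of cells vary from run to run. That spread may be technical.

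Cells within each run were parted into 4 classes. Igfbp2-high cells had at least 5 and Igfbp2-low cells under 1 Igfbp2 UMI per 10,000 (Igfbp2 encodes a secreted binding protein of insulin-like growth factors). Cycling cells had at least 2 UMIs of Top2a, Mki67, Cdk1 and Ccnb1 together, which are proliferation and mitosis genes. These classes held 1559 Igfbp2-high cells not cycling, 14768 Igfbp2-low cells not cycling, 4961 Igfbp2-high cycling cells and 286 Igfbp2-low cycling cells. A further 3098 of the 24672 kept cells lay between the Igfbp2 limits and entered no class.

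All 11 Müller glia markers of the list (Glul, Rlbp1, Slc1a3, Apoe, Vim, Clu, Dkk3, Aqp4, Kcnj10, Crym and Dbi) were present in every class. Their summed level differed between classes, from 322 to 385 UMIs per 10,000 in Igfbp2-low cells not cycling, over 178 to 230 in Igfbp2-low cycling and 159 to 187 in Igfbp2-high cells not cycling, to 102 to 121 in Igfbp2-high cycling cells. The classes also differed in depth, with median UMIs per cell of 8489 to 10361, 11767 to 14594, 13949 to 16083 and 20986 to 23816 in the same order. Mitochondrial UMIs were 4.93 to 5.93% in Igfbp2-low cells not cycling and 2.98 to 3.40% in Igfbp2-high cycling cells, and Malat1, a nuclear RNA, was 4.05 to 4.47% and 1.38 to 1.65%. The smallest class, Igfbp2-low cycling, held 88 to 105 cells a run, and 28.0% of them in run 1 (9.52% and 7.95% in runs 2 and 3) carried markers of microglia, rods, cones or astrocytes. All 6 microglia markers were present there, at 2.07 to 38.1 UMIs per 10,000 summed, against 0.00554 to 0.0364 in Igfbp2-high cycling cells. Pairs of runs shared 83 to 108 cell barcodes.

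A ribosome needs 1 copy of nearly every ribosomal protein, so their synthesis is coordinated. In mammals many of these mRNAs begin with a C followed by a stretch of pyrimidines, the 5' terminal oligopyrimidine tract, through which mTOR signalling controls their translation, and growing and dividing cells make more ribosomes. A few proteins have second gene copies, such as Rps27l beside Rps27 and Rpl36al beside Rpl36a.

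The 2 paralogs with the widest differences among the members were read apart from their usual copies by sequence, and the coding sequences of Rps27 and Rps27l are printed to show how far a pair differs (GENCODE M21 on GRCm38, stop codon left out). Capitals in the paralog mark the bases that differ from the usual copy printed above it.
Rps27: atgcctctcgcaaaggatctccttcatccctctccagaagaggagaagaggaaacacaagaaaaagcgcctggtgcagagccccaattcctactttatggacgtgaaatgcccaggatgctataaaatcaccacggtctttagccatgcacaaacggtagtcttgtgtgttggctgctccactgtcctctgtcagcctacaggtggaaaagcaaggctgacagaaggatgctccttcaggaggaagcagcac
Rps27l: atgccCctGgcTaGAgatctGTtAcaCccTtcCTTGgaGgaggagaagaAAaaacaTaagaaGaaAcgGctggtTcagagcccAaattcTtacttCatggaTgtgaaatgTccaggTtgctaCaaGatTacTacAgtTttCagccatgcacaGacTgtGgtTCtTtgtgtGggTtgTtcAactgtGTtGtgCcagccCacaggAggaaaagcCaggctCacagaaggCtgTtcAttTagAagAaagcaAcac
The Rps27 and Rps27l sequences are 252 bases long and differ at 60 of them (76.2% identical), and those of Rpl36a and Rpl36al are 318 bases long and differ at 39 (87.7%). In the last 300 bases of the transcripts, the end that 3' tags read, the longest shared run was 11 bases for the first pair and 24 for the second. The third copy, Rps27rt, has the same coding sequence as Rps27 at every base, with a shared run of 267 of the last 300 bases, so the counts of Rps27 and Rps27rt cannot be told apart with confidence. Many other ribosomal protein genes have processed pseudogenes that could share reads with them, and how the counting treated these is not given in the sources used here.

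The windows around 5 start sites, 15 bases before and 15 from the start (RefSeq, GRCm38.p6), are shown for Rps4x, Rps27l and Rpl36al, around which the results turn, and for Rpl15 and Rps6, where the tract is present. Capitals mark a tract that starts exactly at the annotated first base, searched as C and then at least 4 of C or T on the sense strand.
Rps4x: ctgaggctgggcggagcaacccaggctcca
Rps27l: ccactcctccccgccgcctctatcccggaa
Rpl36al: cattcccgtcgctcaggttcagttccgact
Rpl15: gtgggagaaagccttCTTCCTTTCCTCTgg
Rps6: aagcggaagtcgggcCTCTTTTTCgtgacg
These lie at chrX:102189377-102189406 (minus strand), chr9:66946071-66946100 (plus), chr12:69184053-69184082 (minus), chr14:18270972-18271001 (minus) and chr4:86857353-86857382 (minus). The tract stood at the annotated start of 14 of the 66 members with an entry (21.2%), against 813 of 27025 genes (3.01%). The other 21 members had no entry. Annotated starts can be off by a few bases, so the absence of a match says only that these letters are not at that base.

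The ribosomal share of UMIs differed little between the classes, and runs differed as much. In Igfbp2-low cells not cycling it was 17.7%, 20.4% and 20.5% in runs 1, 2 and 3, and in Igfbp2-high cells not cycling 19.3%, 20.9% and 21.2%. Igfbp2-high cycling cells held 20.4%, 22.2% and 21.6%, and Igfbp2-low cycling cells 19.3%, 21.9% and 24.3%. Within a run the share was higher in Igfbp2-high than in Igfbp2-low cells not cycling in all 3 runs, by 0.98 percentage points on average, while the classes overlapped across runs. In cycling cells the Igfbp2 difference had no common sign, at -0.41 points on average.

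**Figure D1:**
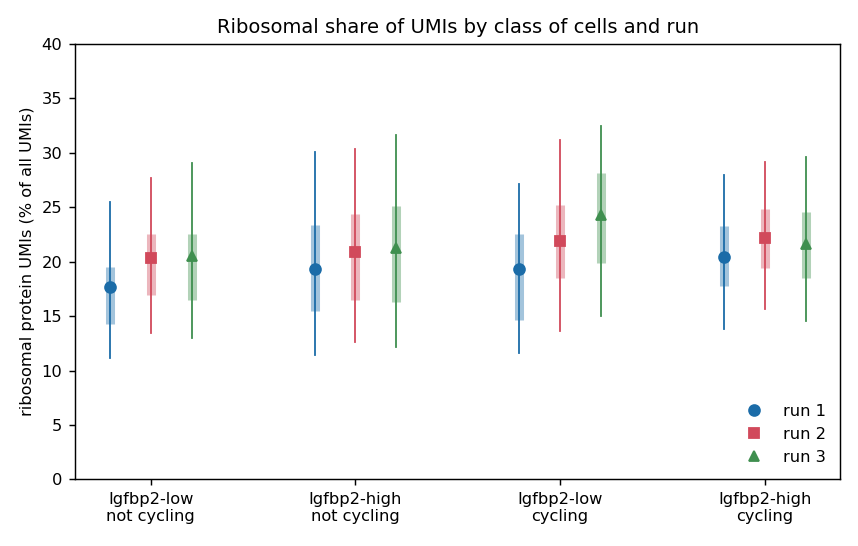
Ribosomal protein UMIs as a percentage of all UMIs (y axis) in the 4 classes of cells (x axis). Points give the summed share in each of the 3 runs, thick bars the middle 50% of cells and thin lines the 5th to 95th percentile of cells. Run 1 was the lowest in every class, and the classes overlap.

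The share moved with depth, though not the same way in each class. In Igfbp2-low cells not cycling it was 15.5%, 18.6% and 18.5% (runs 1 to 3) in cells under 6000 UMIs. In cells of 24000 or more it was 19.4%, 22.1% and 24.4% (29, 53 and 8 cells). In Igfbp2-high cells not cycling it was 22.6%, 23.8% and 21.2% under 6000 UMIs and 19.0%, 21.7% and 23.0% at 24000 or more. The upper end lay below the lower in runs 1 and 2 and above it in run 3. Between them, at 8000 to under 12000 UMIs, it was 18.1%, 19.5% and 18.8%, below both ends in all 3 runs. Igfbp2-high cycling cells gave 20.8%, 22.2% and 21.1% under 6000 UMIs and 19.97%, 22.1% and 21.3% at 24000 or more. Where only cells with 8000 to 16000 UMIs were used, the mean difference between Igfbp2-high and Igfbp2-low cells not cycling was -0.36 points, but the runs disagreed in sign, with 19.2%, 19.2% and 20.3% against 18.1%, 20.4% and 21.3%. Where every cell was thinned to 3500 UMIs before classes were set it was 2.51 points. Thinning moved cells between classes, so other sets of cells were compared. Igfbp2-high cells not cycling numbered 1121, 982 and 879 after it, against 613, 476 and 470 before. The sign of this family-wide difference therefore depended on how depth was handled and, at matched depth, on the run. Counted per cell, members gave 1909 ± 275 UMIs in Igfbp2-low and 3078 ± 247 in Igfbp2-high cells not cycling, and 3328 ± 456 and 4782 ± 425 in the cycling classes (SD, n = 3 runs). Total UMIs per cell moved in the same order, at 9777 ± 993, 15032 ± 1123, 15225 ± 683 and 22311 ± 1192.

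The members did not move as a block. Among cells not cycling, Rps27l and Rpl36al rose with Igfbp2 while Rps4x and Rpl36a fell. Rps27l rose 1.86-fold and Rpl36al 1.84-fold, and Rps4x fell to 0.661 of its level (edgeR, share of UMIs). Of the 85 members tested, 35 were called higher and 2 lower in Igfbp2-high cells (edgeR quasi-likelihood test, Benjamini-Hochberg adjusted p under 0.05), with a median log2 change of 0.14. Of all 14353 genes tested 30.1% were called higher and 32.3% lower (62.3% in either direction), with a median of -0.05. Of the members 41.2% were called higher and 2.35% lower. In cells of 8000 to 16000 UMIs the split was 11 higher and 13 lower, with no share over all genes given for that setting. The 2 members not tested were Rpl3l (3 UMIs in all) and Rpl39l (38).

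Rps27l, a paralog of Rps27 known as a target of p53, stood at 332, 374 and 394 CPM (UMIs scaled to a common library size by TMM) in Igfbp2-low cells not cycling of runs 1, 2 and 3. In Igfbp2-high cells not cycling it stood at 681, 678 and 684 CPM. The groups do not overlap, and the log2 change was 0.90 ± 0.08 (SE, edgeR adjusted p = 4.8e-07). Rpl36al, the paralog of Rpl36a, went from 431, 533 and 527 CPM to 827, 937 and 976 CPM, again without overlap (log2 change 0.88 ± 0.07, edgeR adjusted p = 1.2e-07). Both kept this direction and the call in all 17 alternatives, with log2 changes of 0.73 to 1.47 and 0.75 to 1.45.

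Rps4x, an X-linked protein of the small subunit (chrX:102184941-102189394, minus strand), stood at 4587, 5369 and 5579 CPM in Igfbp2-low cells not cycling. In Igfbp2-high cells not cycling it stood at 3248, 3535 and 3463 CPM. Every Igfbp2-high value lay below every Igfbp2-low value (log2 change -0.60 ± 0.06, edgeR adjusted p = 1.1e-06). The call held in 16 of 17 alternatives and ended when values were taken per cell, where the change was -0.02 (edgeR adjusted p = 0.82). Rpl36a, also X-linked (chrX:134585654-134588062, plus strand), fell from 1948, 2418 and 2368 to 1857, 2057 and 1999 CPM, values that overlap between runs though each run moved down (log2 change -0.18, edgeR adjusted p = 0.046). The fall was called in 9 of 17 alternatives, not called in 7 (among them those without run 2 and without run 3), and counted per cell the sign turned (0.39). The other X-linked members are Rpl10 (log2 change -0.00, not called) and Rpl39 (0.22, called higher).

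**Figure D2:**
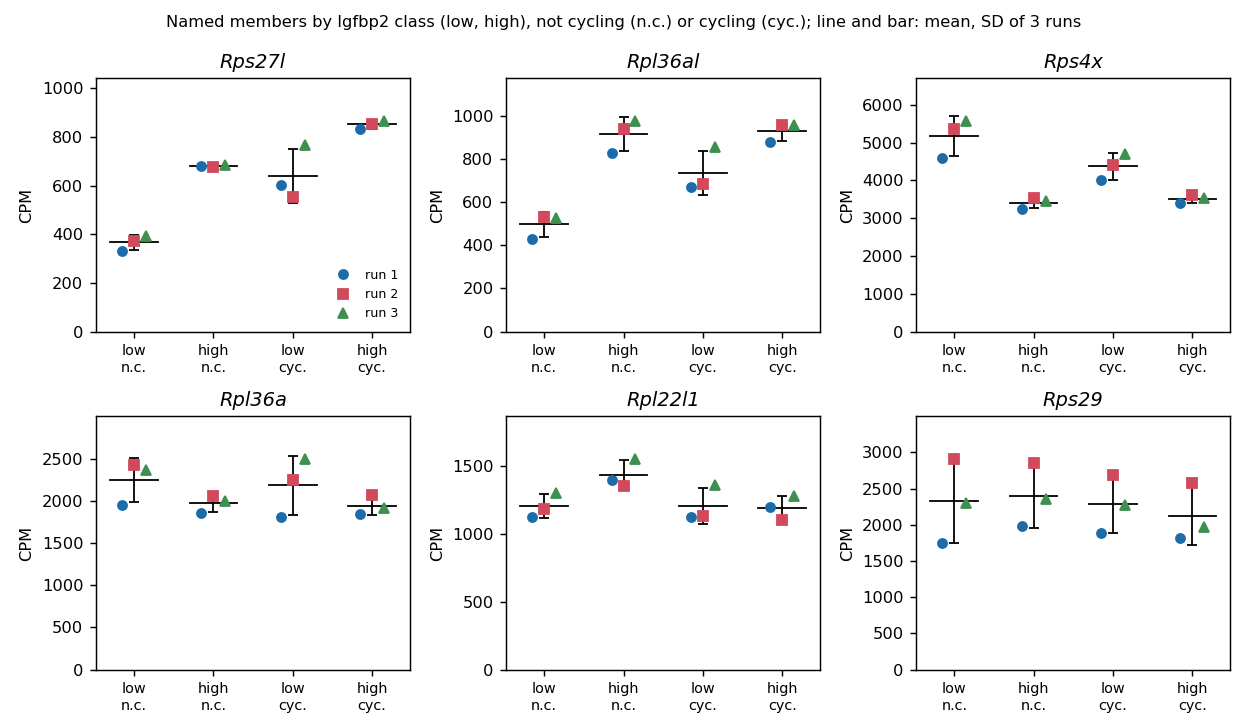
CPM (y axis) of 6 members in Igfbp2-low and Igfbp2-high cells that were not cycling (n.c.) or cycling (cyc.), with 3 runs as points and the mean and SD as line and bar. Rps27l and Rpl36al are lowest and Rps4x highest in Igfbp2-low cells not cycling, with no overlap with either Igfbp2-high class.

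As the members take 20.4% of the UMIs, each was also tested against the sum of the members, which removes any common shift. On this scale, here and below, rises of some members are offset by falls of others by construction, so a mixed split is no result. The shares over all genes are shifted by the same scaling, in the first comparison to a median of -0.17, and serve for reference only. Within ribosomal UMIs 28 members were called higher and 19 lower with Igfbp2 in cells not cycling (edgeR, background 23.6% and 37.3%, or 60.9% in all, of 14353 genes on the same scaling). Rps4x took 2.72%, 2.60% and 2.70% of the ribosomal UMIs in Igfbp2-low cells and 1.63%, 1.63% and 1.61% in Igfbp2-high cells not cycling. Rpl36a took 1.16%, 1.17% and 1.15% against 0.934%, 0.951% and 0.929%, which do not overlap (log2 change -0.30 ± 0.04, edgeR adjusted p = 1.3e-05). On this scale all 4 members kept direction and call in all 13 alternatives. The next falls were Rps23 (-0.26), Rpl37 (-0.26) and Rps20 (-0.22). The next rises were Rps19bp1 (0.47), Rps26 (0.29) and Rps2 (0.29). Rps19bp1 matches the naming rule but encodes a protein that binds Sirt1 and Rps19, not a ribosomal protein.

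The pairs changed their balance. Rpl36al made up 18.1%, 18.1% and 18.2% of the Rpl36a plus Rpl36al UMIs in Igfbp2-low cells not cycling and 30.8%, 31.3% and 32.8% in Igfbp2-high cells not cycling. Rps27l made up 16.6%, 15.6% and 16.6% of the Rps27, Rps27rt and Rps27l UMIs in the former and 26.8%, 24.5% and 25.9% in the latter. Neither pair of ranges overlaps. Rpl22l1, the paralog of Rpl22, made up 54.8 ± 2.16% and 56.2 ± 2.09% of its pair (SD, n = 3 runs), which overlap.

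The 3 leading members were also followed over bins of Igfbp2 level. In cells not cycling with 0 Igfbp2 UMIs, Rps4x took 2.74%, 2.63% and 2.72% of the ribosomal UMIs, and with 1 to under 5 Igfbp2 UMIs per 10,000, just below the limit, 2.62%, 2.56% and 2.58%. Just above it, at 5 to under 10 per 10,000, Rps4x took 1.90%, 1.71% and 1.70%, and at 20 or more 1.54%, 1.58% and 1.59%. For Rps4x most of the difference thus lay between those neighbouring bins. Rps27l went from 0.221%, 0.187% and 0.218% to 0.302%, 0.291% and 0.300% across the same limit, and Rpl36al from 0.271%, 0.259% and 0.276% to 0.333%, 0.367% and 0.408%. Rpl36al rose on in the higher bins, to 0.399%, 0.441% and 0.434% at 10 to under 20 and 0.441%, 0.450% and 0.480% at 20 or more, and in run 1 its rise was gradual. In cells of 8000 to 16000 UMIs the shares were close to those of all cells, for Rps4x 2.72%, 2.64% and 2.68% against 1.59%, 1.66% and 1.58%. Markers of other cells moved over the same classes, some down and some up. Summed rod markers were at 7.95 to 11.5 UMIs per 10,000 in Igfbp2-high and 17.7 to 20.7 in Igfbp2-low cells not cycling. Cone (0.244 to 0.415 against 0.796 to 1.35), bipolar (0.753 to 1.08 against 1.14 to 1.37) and endothelium markers (0.728 to 0.788 against 1.87 to 2.48) were lower too. All 3 pericyte markers were detected in both classes. Summed, they gave 2.45 to 3.88 UMIs per 10,000 in Igfbp2-high and 0.198 to 0.499 in Igfbp2-low cells not cycling. The 3 astrocyte markers (Pax2, S100b and Gfap) gave 10.4 to 10.8 and 6.61 to 9.61, a sum that does not show which cells carried them. Cells with markers of microglia, rods, cones or astrocytes were 8.65 to 10.9% and 3.64 to 5.76%. Rps27l, Rpl36al and Rps4x were still called in the same direction without those cells, a filter that does not remove pericytes. The part of pericyte, rod, cone, bipolar and endothelium markers and of the lower Müller glia marker and Malat1 levels in these changes was not tested.

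**Figure D3:**
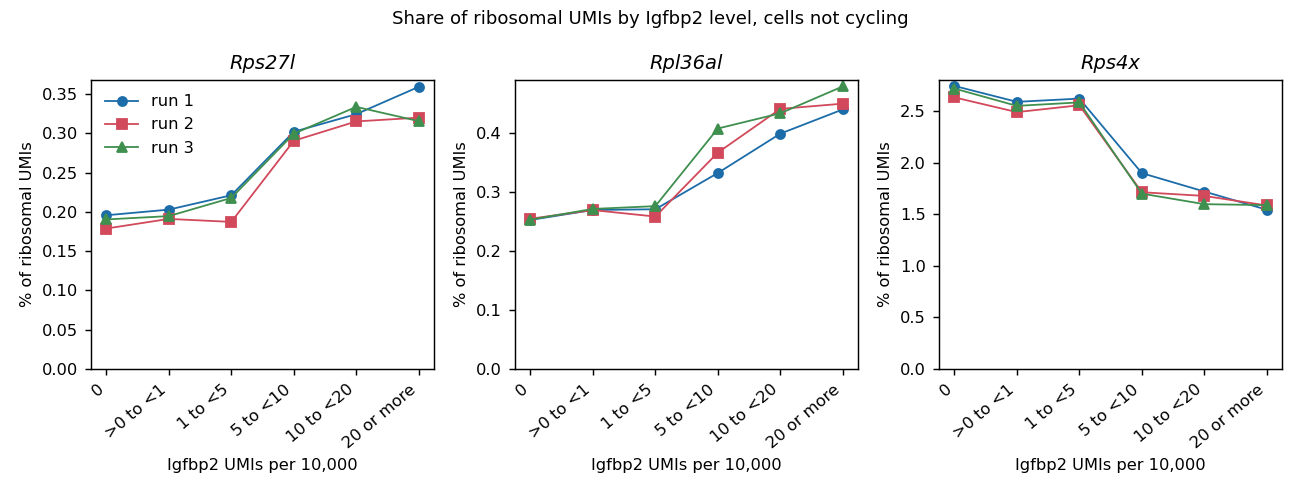
Share of ribosomal UMIs (y axis, percent) of Rps27l, Rpl36al and Rps4x in cells not cycling, by Igfbp2 UMIs per 10,000 (x axis), 1 line a run. Rps4x drops between the bin of 1 to under 5 and that of 5 to under 10, in run 1 from 2.62% to 1.90%, while Rpl36al in run 1 rises gradually, from 0.271% over 0.333% and 0.399% to 0.441%.

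By role, 19 of 44 large subunit members were called higher and 1 lower (Rpl36a) with Igfbp2 in cells not cycling (edgeR), 10 of 31 of the small subunit higher and 1 lower (Rps4x). These are 43.2% and 32.3% called higher, beside 30.1% of all genes, so the small subunit lay near that share. Median log2 changes were 0.13 and 0.11. The stalk, which recruits elongation factors to the ribosome, gave 1 of 3: Rplp2 rose from 1722, 2189 and 2172 to 2425, 2672 and 2803 CPM (log2 change 0.38). Rplp0 (-0.03) and Rplp1 (0.19) were not called. Of the 7 tested paralog-type genes 5 were called higher, which were Rps27l, Rpl36al, Rps19bp1, Rpl22l1 and Rpl7l1. Rpl5 rose (0.28), while Rpl11, its partner in the complex that binds Mdm2, was not called (0.07). Rps6, the substrate of S6 kinase (0.13), Rpsa (0.17) and the ubiquitin fusion Rps27a (0.09) were not called either. Rpl10l (118 UMIs in all) stood at 0.729 CPM or less in every class and run.

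**Figure D4:**
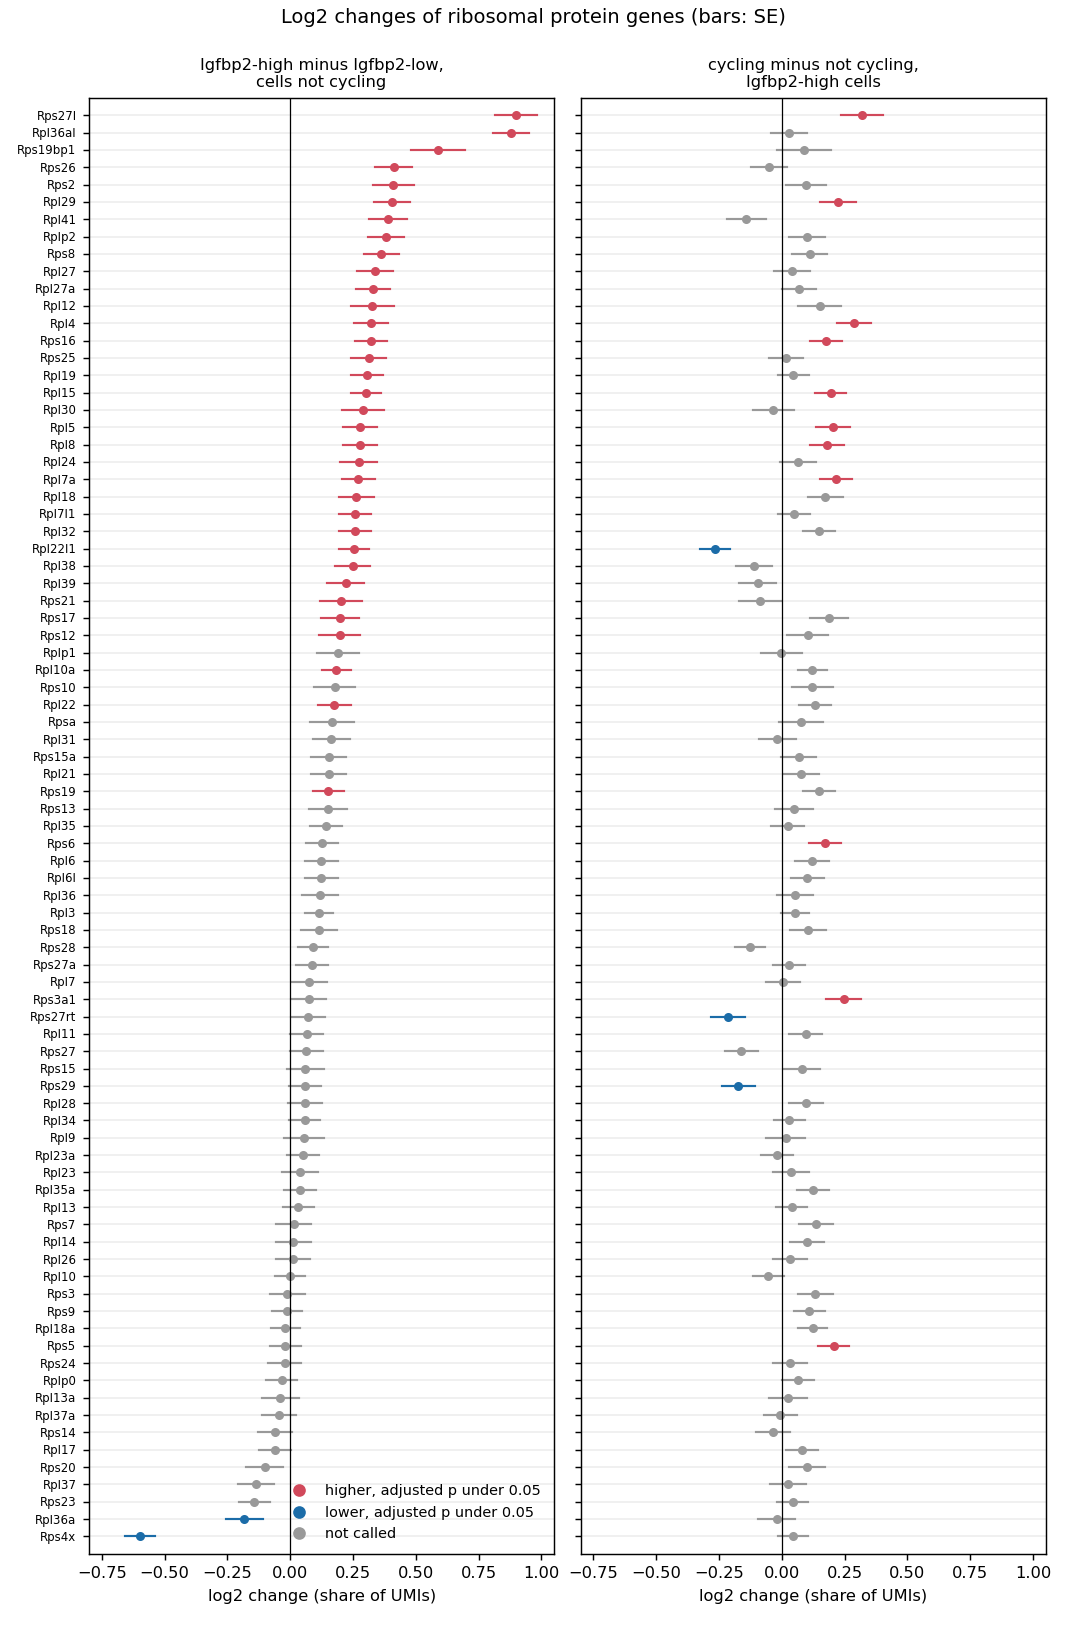
Log2 changes (x axis, with SE bars) of 83 members, 1 a row and ordered by the left panel, for Igfbp2-high minus Igfbp2-low cells not cycling (left) and cycling minus not cycling Igfbp2-high cells (right). Rpl10l, with few UMIs and an SE of 0.63 in the left comparison, and 1 member not reported here are left out. Rps27l (0.90) and Rps4x (-0.60) bound the left panel, and the right panel runs from Rpl22l1 (-0.27) to Rps27l (0.32).

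Among cycling cells the same members led. Igfbp2-high cells were compared with the 286 Igfbp2-low cycling cells, and 14 members were called higher and 1 lower (edgeR, background 25.7% and 19.6%, or 45.3% in all, median 0.07 against 0.05 over all genes). The split was 10 higher and 9 lower without scaling factors. Rps27l stood at 833, 854 and 867 CPM in Igfbp2-high against 602, 554 and 766 CPM in Igfbp2-low cycling cells (log2 change 0.42 ± 0.09, edgeR adjusted p = 0.0012). Rpl36al stood at 877, 958 and 955 against 668, 683 and 853 CPM (0.35 ± 0.07, edgeR adjusted p = 0.0015). Rps4x stood at 3398, 3617 and 3547 against 3998, 4414 and 4691 CPM (-0.31 ± 0.06, edgeR adjusted p = 0.00085). None of these 3 overlapped between classes. The count was 5 without run 2 and 34 without run 3, and without run 1 it split into 5 higher and 7 lower. No member was called after thinning to 3500 UMIs (edgeR, 9 of 84 at an unadjusted p under 0.05). That setting left 43, 65 and 65 Igfbp2-low cycling cells in runs 1, 2 and 3. For none of these alternatives is the share over all genes given, so their counts do not tell a change of the members from one of all genes. Counted per cell, the sign of Rps4x turned (0.15). Within ribosomal UMIs 18 were called higher and 10 lower (edgeR, background 20.6% and 21.0%, or 41.6% in all). There Rps4x (-0.38), Rpl36a (-0.23), Rps28 (-0.21), Rps23 (-0.20) and Rpl37 (-0.20) led the falls, and Rps27l (0.35), Rpl36al (0.28), Rpl4 (0.27), Rpl15 (0.26) and Rpl29 (0.22) the rises.

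The Igfbp2 differences of the 3 leaders were smaller in cycling cells. A test of the difference of differences (edgeR interaction term) called 1 member higher and 2 lower, against a background of 7.02% and 7.06% of genes (14.1% in all). Within ribosomal UMIs it called 1 higher and 3 lower (background 6.10% and 5.48%, or 11.6% in all). On all UMIs these were Rps4x (0.29, edgeR adjusted p = 0.038), Rps27l (-0.48, 0.018) and Rpl36al (-0.53, 0.0041). In Igfbp2-low cycling cells Rps4x took 2.18%, 2.11% and 1.99% of ribosomal UMIs, below the 2.60 to 2.72% of Igfbp2-low cells not cycling and above the 1.58 to 1.63% of both Igfbp2-high classes. Leaving out cells with markers of other types gave interactions of 0.19 (edgeR adjusted p = 0.18), -0.53 (0.014) and -0.52 (0.0050). In cells of 8000 to 16000 UMIs none of the members was called by edgeR (2 of 84 at an unadjusted p under 0.05), with values of 0.18, -0.22 and -0.34. The share over all genes is not given for that setting. Without run 1, 2 or 3 the Rps4x call ended each time (edgeR adjusted p of 0.13 to 0.27), and without run 2 that of Rps27l did (0.062).

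Cycling against not cycling Igfbp2-high cells gave a different order. Rpl4 and Rps3a1 were higher and Rpl22l1, Rps27rt (whose reads cannot be told from those of Rps27) and Rps29 lower in cycling cells, while Rps4x and Rpl36al were not called. In all, 12 members were called higher and 3 lower (edgeR, background 25.0% and 24.2%, or 49.2% in all, median 0.07 against -0.02), so the members' shares were below the background. This count moved with the scaling, from 12 higher and 3 lower to 3 higher and 6 lower with DESeq2 size factors, and to 8, 1 and 8 calls without run 1, 2 and 3. After thinning to 3500 UMIs, which set the classes anew, 15 members were lower and none higher. Among cells in the deposited log values 13 were lower and none higher. Shares over all genes are not given for these alternatives, and the direction over the family was not settled. Counted per cell, 84 of 85 were higher and none lower, with medians of 0.55 over all genes and 0.64 over the members, and in the other 3 comparisons the per-cell medians of all genes were 0.51 to 0.62.

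Rpl4, a large subunit protein, stood at 2489, 2506 and 2458 CPM in Igfbp2-high cells not cycling and at 3051, 3091 and 2955 CPM in cycling ones (log2 change 0.29 ± 0.07, edgeR adjusted p = 0.0026). Rps3a1, a small subunit protein, went from 2556, 2716 and 2712 to 3047, 3233 and 3186 CPM (0.25). Neither overlaps between classes. Rps27l rose further, by 0.32 ± 0.08 (edgeR adjusted p = 0.0054). Rpl22l1 went down from 1397, 1353 and 1553 to 1199, 1101 and 1279 CPM (-0.27 ± 0.06, edgeR adjusted p = 0.0022), with no overlap, after it had risen by 0.25 with Igfbp2 in cells not cycling. The call held in 14 of 17 alternatives, was lost without the run block (edgeR adjusted p = 0.065) and without run 2 (0.063), and counted per cell the sign turned (0.31). Rpl22l1 made up 49.3 ± 2.94% of its pair with Rpl22 in these cycling cells (SD, n = 3 runs). Rps29 stood at 1985, 2859 and 2350 CPM in cells not cycling and at 1824, 2583 and 1971 CPM in cycling cells, lower in each run although the runs overlap (-0.17 ± 0.06, edgeR adjusted p = 0.039), and the fall was called in 10 of 17 alternatives, not called in 6, and turned in sign when counted per cell (0.40).

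Within ribosomal UMIs 14 members were higher and 11 lower in cycling Igfbp2-high cells (edgeR, background 19.7% and 25.3%, or 45.1% in all). The members called lower were Rpl22l1 (-0.33), Rps27rt (-0.28), Rps29 (-0.24), Rps27 (-0.23), Rpl41 (-0.21), Rps28 (-0.19), Rpl38 (-0.17), Rpl39 (-0.16), Rps21 (-0.15), Rps26 (-0.11) and Rps14 (-0.10). Several of these are the smallest ribosomal proteins. The grouping by length was chosen after these values were seen and is therefore a description only. The 10 members with the shortest coding sequences, from Rpl41 (75 bases) to Rpl36 (315 bases), were all below 0, with a median of -0.17. Of these, 7 were called lower and none higher. Of the other 67 members 2 were lower and 13 higher, with a median of 0.03 (paralog-type genes and Rpl6l left out). Rpl41, at 3.51%, 3.72% and 3.62% of ribosomal UMIs in cells not cycling, fell to 3.16%, 3.17% and 3.08% in cycling cells. Across the 77 members Spearman's rho between coding length and log2 change was 0.55, over members that share the same 6 sums of cells. In the cells of 8000 to 16000 UMIs rho was 0.39 and 8 of the 10 were below 0, and after thinning to 3500 UMIs rho was 0.61 and all 10 were. With Igfbp2 in cells not cycling, rho was -0.03 and the medians were -0.02 and 0.02. With Igfbp2 in cycling cells rho was 0.31, and of the 10 shortest 9 were below 0 and 4 called lower. With cycling in Igfbp2-low cells rho was only 0.15, and 7 of the 10 were below 0 and 1 called lower. The pattern was thus weak in the other comparison of cycling cells and partly present with Igfbp2. In Igfbp2-high cells not cycling the summed astrocyte markers (Pax2, S100b and Gfap) were at 10.4 to 10.8 UMIs per 10,000. In Igfbp2-high cycling cells they were at 0.431 to 0.792. The pericyte markers went from 2.45 to 3.88 to 0.25 to 0.386 between the same classes. Cells with markers of microglia, rods, cones or astrocytes went from 8.65 to 10.9% to 1.12 to 2.67%. Without those cells rho was 0.55 and all 10 members were below 0, with a median of -0.18. Depth, mitochondrial, Malat1 and pericyte levels moved with the cycling class too, and their part in this pattern was not tested.

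**Figure D5:**
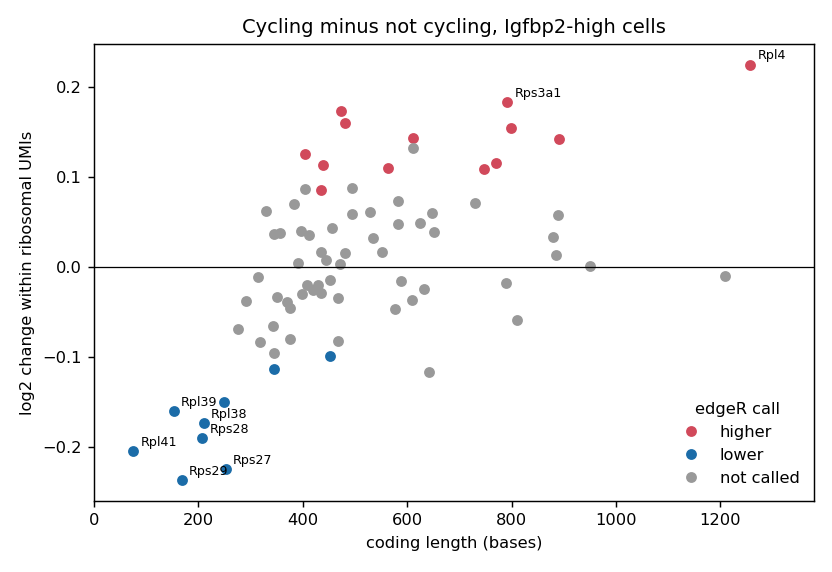
Coding length in bases (x axis) against the log2 change within ribosomal UMIs (y axis) for cycling minus not cycling Igfbp2-high cells, 1 point for each of 77 members and coloured by the edgeR call. The members under 260 bases all lie below 0, and the longer members called higher lie between 0.09 and 0.22.

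In Igfbp2-low cells, cycling against not cycling gave 22 members higher and 1 lower (edgeR, background 16.9% and 15.6%, or 32.5% in all, median 0.12 against -0.07). Rps27l (0.80 ± 0.09, edgeR adjusted p = 8.2e-06) and Rpl36al (0.56 ± 0.07, edgeR adjusted p = 5.0e-05) led again, with Rps19bp1 (0.40), Rpl12 (0.37) and Rpl29 (0.33) also higher. The single fall was Rps4x (-0.24 ± 0.06, edgeR adjusted p = 0.0065), whose runs overlap although each moved down. Of these, Rps27l, Rpl36al and Rps4x had led with Igfbp2 too, but the comparisons share classes of cells and are no independent support for each other. The count fell to 12 without run 2, 15 without run 3, 6 without the run block and 2 in the cells of 8000 to 16000 UMIs. No share over all genes is given for these settings, so a loss of calls in all genes cannot be told from one in the members. Within ribosomal UMIs 18 were higher and 12 lower (edgeR, background 13.2% and 20.4%, or 33.6% in all), led by Rps27l (0.68), Rpl36al (0.45) and Rpl12 (0.25) on one side and by Rps4x (-0.36), Rps27 (-0.24) and Rps27rt (-0.19) on the other.

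Other genes of protein synthesis, taken from lists, are given for reference. All values here are log2 changes in share of UMIs from edgeR, and the shares of all genes called were 30.1% higher and 32.3% lower with Igfbp2 in cells not cycling and 25.0% and 24.2% with cycling in Igfbp2-high cells. A list of 15 other genes of initiation held factors and also Eif4ebp1 and Eif4ebp2, which encode 4E-binding proteins and not factors. Of these 15, 14 were higher with Igfbp2 in cells not cycling and none lower (median 0.61). With cycling in Igfbp2-high cells 10 were higher and none lower (median 0.26). Eif5a, which carries the hypusine residue and helps elongation, rose by 1.10 and 0.35 in these comparisons, and Eif2s1, the alpha subunit of the factor that brings in the initiator tRNA, by 1.35 and 0.81. Another list held 20 translation factors and partners named for mRNAs with the pyrimidine tract, which was not searched for in that list here. Of these, 10 were higher and 6 lower with Igfbp2 in cells not cycling (median 0.12), and 7 and none with cycling. Elongation factors Eef1a1 (-0.18) and Eef2 (-0.21) fell with Igfbp2, while Npm1, a nucleolar chaperone of ribosome assembly, rose by 1.13. Of 77 mitochondrial ribosomal proteins 46 were higher and 6 lower (median 0.24) with Igfbp2, and 47 and 5 (0.26) with cycling. Of 12 genes of mTOR, S6 kinase and Myc signalling, 5 were higher and 4 lower with Igfbp2 (median 0.11), near the shares over all genes.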

How the data were processed

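UMI counts per gene and cell were deposited by the authors as 1 table of 24695 cells and 18478 genes. Per the submitters' processing notes they used Cell Ranger (version not given), Seurat 2.3.4 and the mm10 build. A second deposited table held natural log values of 13511 of the cells (54.7%), which equalled ln(1 + 10000 × count / cell total) to within 5.00e-07 and served only to name the cells of 1 alternative. Runs 1 to 3 had 7670, 8802 and 8223 cells and 94858762, 122888236 and 97032672 UMIs.

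The cell filter asked for 500 genes or more and no more than 20% mitochondrial UMIs, which 24672 cells passed and 23 did not. Doublets were not called and were kept. Counts were summed over each run and class, which gave 12 sums, and tested with edgeR 4.0.16 in R 4.3.3 (filterByExpr, TMM scaling, quasi-likelihood F test, run as block, Benjamini-Hochberg over all genes tested). No test covered the 5 class-setting genes. The block rests on the design, since the 4 classes of a run came from 1 library. A second fit used the sum of the members as library size. Scripts were tested on simulated data. CPM are TMM-scaled. Shares of UMIs have no test. Coding lengths and transcripts came from GENCODE M21 and start sites from RefSeq GRCm38.p6. Python 3.11.15 and DESeq2 1.42.0 were also used.

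Named members were, in each comparison and test, the 5 largest rises and falls among called members with the same direction in every run, plus 26 names given by role. Alternatives changed scaling, filter, tool, block, runs, depth, cells and class limits. The members, classes and lists were chosen with earlier results of these data known. 1 member and 1 sequence are not reported here by name, though the counts of members include that member.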

Additional observations from a re-analysis of the deposited data

Results flagged for a closer look

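By the edgeR interaction term, the Igfbp2 difference differed between cycling and not cycling cells for 3 of 85 members on the scale of all UMIs. These were 3.53% of the members, below the 14.1% called among all 14353 genes. The values were 0.29 for Rps4x, -0.48 for Rps27l and -0.53 for Rpl36al (log2, edgeR adjusted p of 0.038, 0.018 and 0.0041). Within ribosomal UMIs it was 4 members (4.71%, below the 11.6% of all genes). They were at 0.34 for Rps4x, -0.43 for Rps27l, -0.48 for Rpl36al and -0.25 for Rpl41, the smallest ribosomal protein (edgeR adjusted p of 0.00096, 0.0055, 0.0013 and 0.0045). In each of Rps4x, Rps27l and Rpl36al the difference with Igfbp2 had the same sign in both kinds of cell and was the smaller in cycling cells. In cells of 8000 to 16000 UMIs the values within ribosomal UMIs were 0.14, -0.26, -0.38 and -0.24 in the same order (edgeR adjusted p of 0.30, 0.20, 0.020 and 0.0053), so 2 of the 4 were no longer called. All of them rest on the Igfbp2-low cycling class of 88 to 105 cells a run, where 7.95 to 28.0% of cells carried markers of other types. Without those cells the 4 values within ribosomal UMIs were 0.32, -0.39, -0.39 and -0.27, each still called by edgeR. On all UMIs the same step left Rps27l and Rpl36al called, but not Rps4x (0.19, edgeR adjusted p = 0.18). In cells of 8000 to 16000 UMIs none of the 3 was called on all UMIs. On that scale the Rps4x call also ended without run 1, 2 or 3, and that of Rps27l without run 2.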

How the results depend on the processing

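Counts of called members moved with most settings, while Rps27l and Rpl36al kept direction and call with Igfbp2 in cells not cycling under all 17 alternatives. The share of all genes called is given for none of these alternatives. Their counts therefore do not tell a shift of the members from one of all genes. In the order Igfbp2 in cells not cycling, Igfbp2 in cycling cells, cycling in Igfbp2-high and cycling in Igfbp2-low cells, 37, 15, 15 and 23 members were called, and 3 by the interaction. Within ribosomal UMIs it was 47, 28, 25 and 30. Leaving out 1 run gave 29 to 49, 5 to 34, 1 to 8 and 12 to 23, and 1 to 4 for the interaction. Within ribosomal UMIs it gave 32 to 41, 11 to 24, 9 to 18 and 15 to 20.

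Without the replicate block, which pairs the classes of a run, 20, 5, 2 and 6 were called and 0 by the interaction (edgeR, 3 of 85 at an unadjusted p under 0.05), and within ribosomal UMIs 20, 10, 5 and 8.

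UMIs per cell gave 83, 83, 84 and 84. No scaling factors gave 23 and 47 for cycling in Igfbp2-high and Igfbp2-low cells and 7 for the interaction, and DESeq2 size factors gave 9 for cycling in Igfbp2-high cells and 6 for the interaction. DESeq2 called 38 for cycling in Igfbp2-low cells and 15 for the interaction. With no filter, Igfbp2 in cycling cells gave 30 and cycling in Igfbp2-high cells 25. With only the 2 classes compared, Igfbp2 in cycling cells gave 2 (11 within ribosomal UMIs), cycling in Igfbp2-high cells 44 (42), and cycling in Igfbp2-low cells 10 within ribosomal UMIs.

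Thinning set the classes anew and gave 0 for Igfbp2 in cycling cells (edgeR, 9 of 84 at an unadjusted p under 0.05). Within ribosomal UMIs it gave 5 there and 8 for cycling in Igfbp2-high cells. The interaction had 8 under thinning. The share differences after thinning were 2.51 points with Igfbp2 in cells not cycling and -0.63 with cycling in Igfbp2-high cells. Cells of 8000 to 16000 UMIs gave 24 with Igfbp2 in cells not cycling, 14 within ribosomal UMIs for cycling in Igfbp2-high cells, 2 (3 within ribosomal UMIs) for cycling in Igfbp2-low cells and 0 for the interaction (edgeR, 2 of 84 unadjusted), with share differences of -0.36 and 1.82 points. Cells of the log table gave 18 for Igfbp2 in cycling cells within ribosomal UMIs, 12 for the interaction and a share difference of 0.37 points with cycling. Leaving out cells of other types gave 10 for the interaction. Igfbp2 at 10 or more against 0 gave 8 and 9 (19 within ribosomal UMIs) for cycling in Igfbp2-high and Igfbp2-low cells. Cycle genes at 4 or more against 0 gave 3 (9 within ribosomal UMIs) for Igfbp2 in cycling cells.

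Signs that turned did so mostly per cell, where depth is kept. With Igfbp2 in cells not cycling these were Rpl10 0.57, Rpl36a 0.39, Rpl37 0.44, Rplp0 0.54, Rps20 0.47 and Rps23 0.43. With Igfbp2 in cycling cells they were Rpl10 0.41, Rpl22l1 0.44, Rpl36a 0.29, Rpl37 0.33, Rps20 0.41, Rps23 0.32, Rps27rt 0.39, Rps28 0.32, Rps29 0.35 and Rps4x 0.15. With cycling in Igfbp2-high cells they were Rpl10 0.52, Rpl22l1 0.31, Rpl36a 0.55, Rpl39 0.47, Rpl41 0.43, Rplp1 0.57, Rps26 0.52, Rps27 0.41, Rps27rt 0.36, Rps28 0.44 and Rps29 0.40. With cycling in Igfbp2-low cells they were Rpl10 0.68, Rpl22l1 0.69, Rpl36a 0.65, Rpl7 0.64, Rplp0 0.67, Rps27 0.57, Rps27rt 0.61, Rps29 0.68 and Rps4x 0.45. Thinning turned Rpl37 (-0.21), Rpl5 (-0.033), Rpl29 (-0.022) and Rps6 (-0.059) with cycling in Igfbp2-high cells, cells of 8000 to 16000 UMIs turned Rps26 there within ribosomal UMIs (0.030), and the cells of the log table turned the interaction of Rpl10 within ribosomal UMIs (0.19). The cause of these changes was not tested. The 286 Igfbp2-low cycling cells limit the 3 comparisons that use them.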

Other observations

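Within the Igfbp2-high cells the ribosomal share of UMIs was not highest in the cells with most cycle UMIs. Its median over cells was 18.4%, 20.1% and 19.3% in runs 1, 2 and 3 in cells with 0 UMIs of the 4 cycle genes, 21.6%, 23.6% and 23.0% in those with 4 to 7, and 19.8%, 21.8% and 20.9% in those with 8 or more. All 3 runs had this shape. Igfbp2-low cells gave 16.6%, 19.5% and 19.3%, then 22.1%, 25.3% and 28.1%, then 19.3%, 21.5% and 23.0%, with 11 to 26 cells a run in the upper bins. The bins differed in depth as well. In Igfbp2-high cells median UMIs per cell were 14234, 15364 and 13579 at 0 cycle UMIs and 14618, 14632 and 15178 at 4 to 7. At 8 or more they were 24620, 25948 and 23736. Depth rose over the bins of Igfbp2-low cells too. No test was made of this score over the members, and the part of depth in it was not tested.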
